A study of Homo sapiens with 4 samples.

Results

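The strongest chromatin loops shared by cohesin and CTCF were examined in the lymphoblastoid cell line HG00731, an established line of B cells immortalised with Epstein-Barr virus from the 1000 Genomes collection. In HiChIP, crosslinked chromatin is cut, ligated in place and precipitated with an antibody, so that read pairs are enriched for contacts at sites of the target protein. SMC1, a core subunit of the cohesin ring, was precipitated after dual crosslinking with formaldehyde and EGS (FA-EGS HiChIP), and CTCF after formaldehyde alone (FA HiChIP). Each target had 2 replicates, which the authors pooled into 1 loop list and 1 peak list, so no value here has a replicate error and no difference between the targets or between groups of loops could be tested against replicates. Target and crosslinking changed together and cannot be told apart.

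Loops are given as pairs of 5 kb bins, the anchors, with the number of read pairs observed and the number expected by the MAPS loop caller for that pair. The members described here were selected on those values: the same 2 bins had to be in both lists on chromosomes 1 to 22, with an observed over expected ratio (O/E) of at least 10 in both. Of 19179 shared bin pairs, 466 met the rule (2.43%), which left 18713 other shared bin pairs for comparison. The list labelled SMC1 held 27785 bin pairs on these chromosomes, of which 675 reached 10 (2.43%). The list labelled CTCF held 79406, of which 4156 reached 10 (5.23%). Thus the members made up 69.0% of the bin pairs at 10 or more in the SMC1 list and 11.2% of those in the CTCF list. They held 23089 of the 783375 read pairs of the SMC1 list and 52370 of the 2635261 of the CTCF list.

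The list names follow their labels. In the SMC1 list 11 bin pairs had no SMC1 peak at either anchor while none lacked a CTCF peak, and in the CTCF list 3654 had no CTCF peak while none lacked an SMC1 peak, although the loop caller takes bin pairs with a peak of the list's own target. Over all chromosomes the list labelled SMC1 held 28012 bin pairs and that labelled CTCF 80487. The paper gives the first number for its CTCF loops and the second for its SMC1 loops. The labels of both loop lists therefore appear to be exchanged. In that case every loop value given for the SMC1 list belongs to CTCF and the reverse. The peak lists are not touched by this. Because the rule treats both lists alike, the same 466 members are found whichever label belongs to which list. As a check of the cell type, 8 of 8 B cell markers had an SMC1 peak within 1 kb of a coding start, against 2 of 6 T cell markers, 1 of 4 myeloid markers and 63.1% of all protein-coding genes. A CTCF peak separated them less, with 5 of 8, 3 of 6 and 1 of 4, against 45.2%.

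Cohesin is known to enlarge loops by moving along DNA, and CTCF to halt it at sites whose motifs point into the loop. Loops whose anchors carry motifs facing each other, called convergent, are therefore the typical form of CTCF loops. Such loops set which enhancers and promoters share a domain.

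The leading locus was on chromosome 20 and enclosed CEBPB, a transcription factor of myeloid and inflammatory gene expression. Motifs at its anchors, and at those of the next 5 loci with a motif at both anchors, show the convergent arrangement by letter. The 19 bp motif was learned from the CTCF peaks themselves and read NNGCCANNAGGGGGCGNNN where a base prevailed. Each hit below is in capitals with 5 flanking bases in lower case, from the hg38 reference, 5′ to 3′ on the strand named. All left hits lay on the plus strand and all right hits on the minus strand.
CEBPB locus, left anchor, chr20:50186409-50186437, plus strand: agaacCTGCCACCTGGGGGCAGTAtatac
CEBPB locus, right anchor, chr20:50460921-50460949, minus strand: gggctGGGCCACCAGGAGGCGCTAgggac
NPTX2 locus, left anchor, chr7:98433423-98433451, plus strand: tgttgCTTTCAGGAGATGGCACCAggtgt
NPTX2 locus, right anchor, chr7:98841929-98841957, minus strand: cagtaTGTCCAGCAGGTGGCAGTGtctga
ITGB8 locus, left anchor, chr7:19747930-19747958, plus strand: ctttcCTACCACTTGGTGGCAGTAgctcc
ITGB8 locus, right anchor, chr7:20598888-20598916, minus strand: tcgttGGACCACAGGAGGATGGGGgaagc
TMEM17 locus, left anchor, chr2:62457104-62457132, plus strand: tcgcgCGGCCAGCAGGGGCCAGCAtcccc
TMEM17 locus, right anchor, chr2:62775245-62775273, minus strand: atcatTCACCACTGAGGGGAGCTAtaacc
LPCAT2 locus, left anchor, chr16:55465289-55465317, plus strand: aaaagTGGCCACCAGATGGCGCAGcctat
LPCAT2 locus, right anchor, chr16:55703581-55703609, minus strand: actaaACACCACCAGAGGGCACCAagtgc
CTSC locus, left anchor, chr11:88015619-88015647, plus strand: ataagACTCCAGGAGAGGAAAGTGagtta
CTSC locus, right anchor, chr11:88544551-88544579, minus strand: aacaaGGCCCCCTAGAGGGCAGCAgagcc
The hits scored from 7.96 bits, at the right anchor of the ITGB8 locus, to 19.3 bits, at the right anchor of the CEBPB locus. Both CEBPB hits were intergenic. The left hit of the LPCAT2 locus lay in an intron of MMP2 and the right hit in a UTR exon of SLC6A2. The left hit of the ITGB8 locus lay in an intron of TMEM196, the right hit of the TMEM17 locus in an intron of EHBP1 and the right hit of the CTSC locus in an intron of GRM5. The other hits were intergenic. Each hit was the best near any CTCF peak of its bin, which need not be the strongest peak there. The left CTSC hit lay at a peak with a −log10 q-value of 6.93, though that bin's strongest reached at least 181.7. The right LPCAT2 hit lay at one of 26.9, where the strongest reached at least 63.5.

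At the CEBPB locus the strongest bin pair joined bins starting at 50185001 and 50460001 on chromosome 20, 275 kb apart. The SMC1 list held 306 read pairs there where 9.07 were expected, an O/E of 33.7 (exact 95% Poisson interval 30.1 to 37.7). The CTCF list held 569 where 16.9 were expected, also an O/E of 33.7 (31.0 to 36.5). These intervals, like all others given here, cover counting error only. CEBPB was the 1 protein-coding gene enclosed, its start lay 830 bp from the left anchor, and 5 member bin pairs belonged to the locus. In geometric mean of both lists this locus stood well above the next, which reached 24.7.

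**Figure D1:**
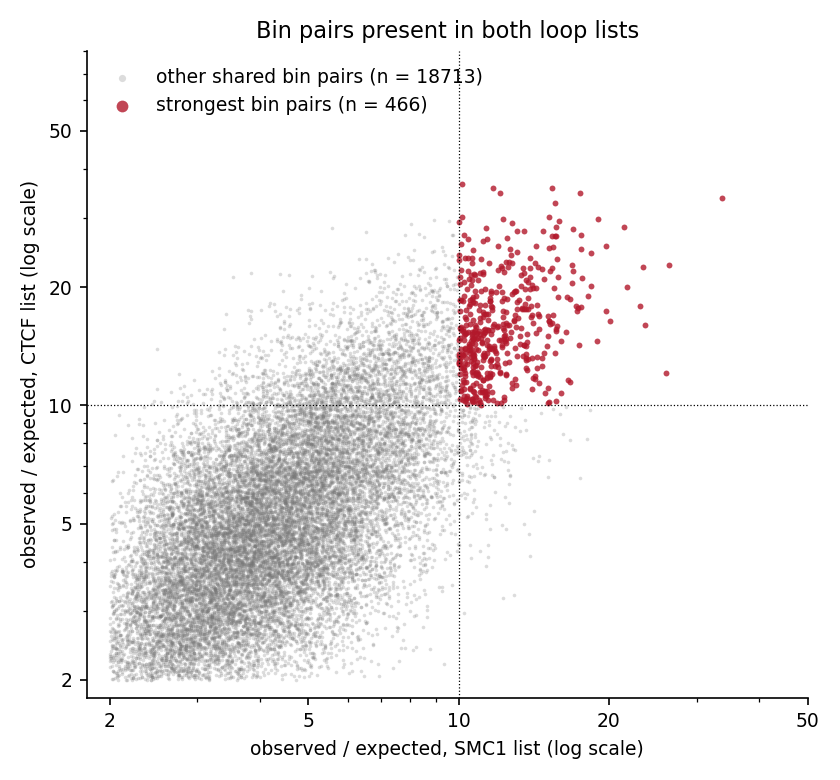
Observed over expected read pairs of every shared bin pair in the SMC1 list (x axis, log scale) and the CTCF list (y axis, log scale), with members in red, other shared bin pairs in grey and dotted lines at 10. The members fill the upper right corner by the rule itself, and the CEBPB bin pair stands alone at 33.7 on both axes.

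Joining members whose anchors both lay within 10 kb gave 334 loci. A single member made up 239 of them, and 95 had several, up to 6. The 20 leading loci were each read at their strongest bin pair alone. Among them, 10 had convergent motifs and 7 lacked a motif at 1 anchor or both. The other 3, the EGFR, MED9 and GPR26 loci described below, had motifs in the same orientation. Of the leading loci, 7 enclosed 1 protein-coding gene, 11 enclosed 2 or 3, and 2 enclosed none. A coding gene was enclosed by 77.5% of all members and 64.4% of the other shared bin pairs, with a median of 1 in both groups.

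NPTX2 and EGFR each lay alone in a leading loop. NPTX2, a neuronal pentraxin of synapses, lay alone in a loop of 410 kb with an O/E of 19.1 in the SMC1 list (79 read pairs) and 29.9 in the CTCF list (209 read pairs). EGFR, the epidermal growth factor receptor, lay alone in a loop of 470 kb with 15.9 (35 read pairs) and 29.6 (83 read pairs). No RNA was measured, so whether they were expressed is not known from these data.

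The loop around ITGB8, an integrin subunit, and MACC1 spanned 850 kb, with 32 read pairs and an O/E of 15.4 (10.5 to 21.7) in the SMC1 list. In the CTCF list it had 148 read pairs and 35.7 (30.2 to 42.0). A higher ratio in that list was the usual case, at 82.4% of members and 65.5% of the other shared bin pairs. TMEM17, a protein of the primary cilium, lay in a loop of 320 kb with nearly equal values, 23.4 (19 to 28.5) and 22.6 (19.5 to 26.0). LPCAT2, a lysophospholipid acyltransferase, and CAPNS2 lay in a loop of 235 kb with 15.6 and 32.7. RAB38, a small GTPase of melanosomes, and CTSC, the protease cathepsin C, shared a loop of 525 kb with 16.98 and 28.1.

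At other loci an anchor of the strongest bin pair lacked a motif or a peak. The second locus, of 330 kb, enclosed RNF141, LYVE1 (a hyaluronan receptor of lymphatic endothelium) and IRAG1, with an O/E of 21.5 and 28.5. Its strongest bin pair had no motif of 7 bits at the left anchor. The member of this locus that started at the next bin had convergent motifs of at least 13.2 bits (19.7 and 25.4). The loop of 835 kb between introns of NLRP1, an inflammasome sensor, and AIPL1 enclosed WSCD1 and had 33 read pairs (17.5) and 61 read pairs (34.6). The loop of 215 kb around NEURL1B, a ubiquitin ligase of the Notch pathway, had 26.4 (20.9 to 32.8) in the list labelled SMC1 and 22.8 (18.0 to 28.5) in that labelled CTCF, with overlapping intervals. Its right bin held no peak of either target, but the next bin held peaks of both. The member of the same locus ending there, of 220 kb, had convergent motifs (12.5 and 26.6). One leading bin pair lay wholly inside a gene, CACNA1A, which encodes a neuronal calcium channel subunit, spanning 315 kb with 18.4 and 24.5.

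Other leading loci held the following genes. MED9, RASD1 and PEMT shared a loop of 285 kb (17.6 and 27.2). GPR26 and CPXM2 shared one of 385 kb (15.2 and 30.2). IRF2BP2, a transcriptional corepressor, lay alone in 585 kb (21.8 and 20.01). ATXN10 and WNT7B, a Wnt ligand, lay in 400 kb, with the coding start of FBLN1 in the left anchor and that of WNT7B in the right (15.6 and 27.0). KAT6B, a histone acetyltransferase, lay with DUSP29 in 830 kb (15.6 and 26.9). GALNT17 lay alone in 880 kb (12.1 and 34.6), and KNOP1, IQCK and GPRC5B shared 285 kb (11.7 and 35.8). In the last 2 loops named, the SMC1 interval reached below 10 (8.73 and 8.46). The same held at some members named below, among them both that enclosed IRF8 (9.57 and 9.69). It also held at the longer member enclosing ETS1 (8.01), whereas the lower bound at the EBF1 loop of 410 kb was 13.1. How many members had such an interval is not given here. The fourteenth locus, of 305 kb on chromosome 7, enclosed no coding gene.

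**Figure D2:**
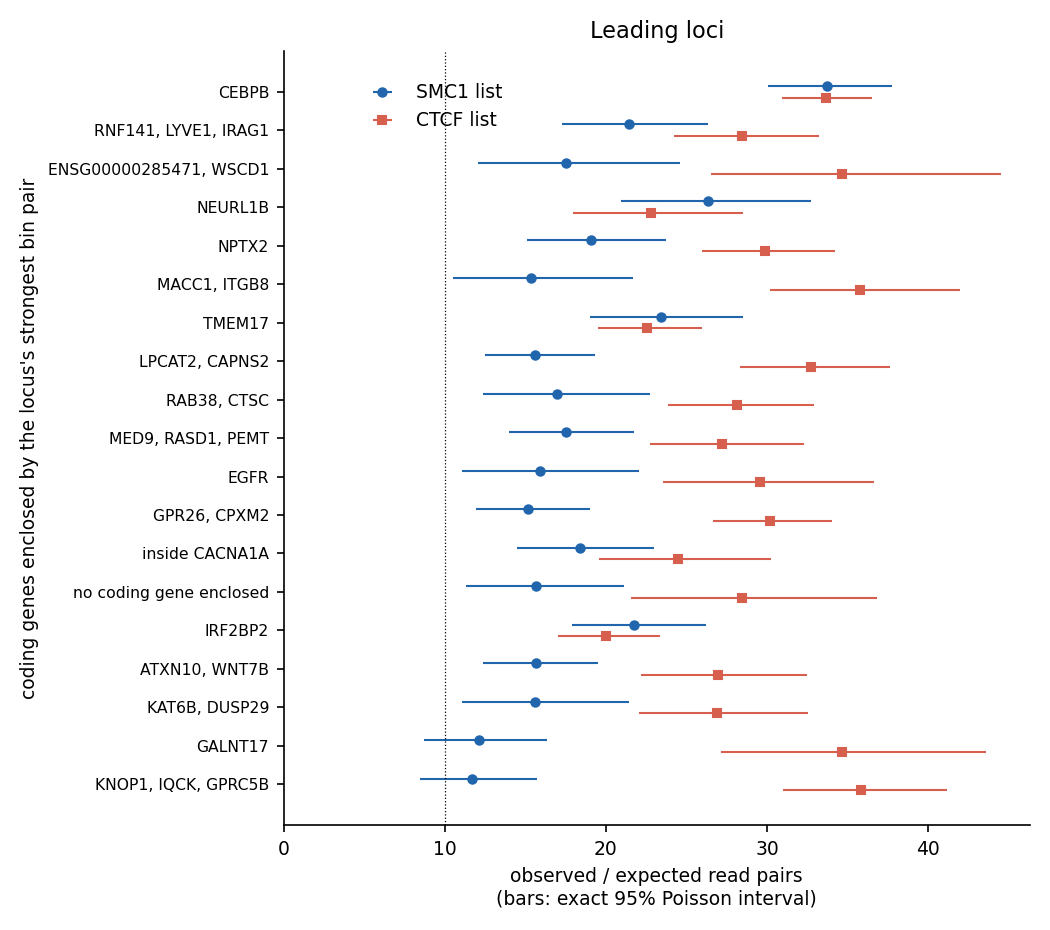
Observed over expected read pairs at the strongest bin pair of 19 of the 20 leading loci, in the SMC1 list (blue circles) and the CTCF list (red squares), with exact 95% Poisson intervals and a dotted line at 10. The CEBPB locus is highest in the SMC1 list at 33.7, and the CTCF value lies above the SMC1 value except at the CEBPB, NEURL1B, TMEM17 and IRF2BP2 loci.

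Across the members the ratio was higher in the list labelled CTCF at 384 of 466 (82.4%), against 65.5% of the other shared bin pairs. With exchanged labels these would be the members with the higher ratio in the cohesin list. The median O/E was 11.6 in the SMC1 list and 15.4 in the CTCF list, against 4.24 and 5.01. These values chose the members and are given as description. Median read pairs were 38 and 78, against 22 and 38 in the other shared bin pairs. In the 3 members nearest the threshold the lower of both ratios was between 10 and 10.02, and the 3 nearest it from below it was 9.999, 9.993 and 9.99.

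Genes of B cells were enclosed at several loci. Of 94 genes in the 7 B cell lists used, members enclosed 11 (11.7%, Wilson 95% interval 6.66 to 19.8), against 504 of all 19103 protein-coding genes (2.64%). Shared bin pairs of any strength enclosed 60 of these 94 (63.8%), against 35.4% of all coding genes. The lists were drawn up with earlier results of these data known, so the counts are no independent evidence. No T cell lineage gene of 16 was enclosed by a member (0 of 16, Wilson upper bound 19.4%), while 2 of 25 non-blood lineage factors were, among them PAX6, a factor of eye development. Of 11 genes of CTCF and cohesin factors, STAG1 (a cohesin subunit) and WAPL (which releases cohesin) were enclosed.

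Among B cell identity factors, 3 of 14 were enclosed. EBF1, an early determinant of the B lineage, lay alone in a loop of 410 kb on chromosome 5 with 58 read pairs (O/E 17.2) in the SMC1 list and 177 (17.4) in the CTCF list, and its anchor motifs of 17.7 and 13.2 bits were convergent. IRF8, an interferon regulatory factor of B and myeloid cells, was enclosed by 2 members that shared the left anchor. The longer, of 195 kb, had 149 read pairs (11.5) and 413 (16.5) with convergent motifs, and the shorter, of 165 kb, had 165 (11.2) and 504 (11.6) with no motif at its right anchor. FOXO1, a transcription factor of B cell development, lay in a loop of 740 kb near the threshold (10.1 and 10.9). Its anchor motifs had the same orientation.

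Of 19 genes in the receptor signalling list, 2 were enclosed, among them MALT1, a protease that relays B cell receptor signals to NF-kappaB. MALT1 was enclosed by 3 members with the same right anchor on chromosome 18, of which the strongest spanned 230 kb with 123 read pairs (23.6) and 266 (16.0). None of the 3 had convergent motifs, and the strongest had no motif at its left anchor. VAV2, an exchange factor of the same pathway, was the 1 gene of the 19 with a coding start at a member anchor. Of all 19103 protein-coding genes 108 had one (0.565%), and no gene of the other B cell lists did.

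NFKBIZ, a nuclear regulator of NF-kappaB, was the 1 gene enclosed of 14 in its list, in a loop of 415 kb with 41 read pairs (17.6) and 125 (17.8). That loop lacked a motif of 7 bits at 1 anchor or both. ETS1 was enclosed by 2 members on chromosome 11, alone in 335 kb (16.6 and 11.6) and with its neighbour FLI1, another ETS factor, in 660 kb (12.4 and 15.1). The longer loop had convergent motifs of 15.5 and 21.0 bits, and the shorter had no CTCF peak at its right anchor. XBP1, a plasma cell transcription factor, lay with CHEK2, HSCB and CCDC117 in 225 kb (10.8 and 12.1), and TNFRSF17, the plasma cell receptor BCMA, alone in 120 kb (10.03 and 13.5). Neither the XBP1 nor the TNFRSF17 loop had a motif of 7 bits at both anchors. ICAM1, an adhesion molecule of activated B cells, lay with ICAM3, TYK2 and other genes in 120 kb, with 211 read pairs (12.4) and 330 (17.3). Its anchor motifs were convergent. None of the 12 genes in the list of HLA class II and CIITA was enclosed. Against 2.64% of all protein-coding genes, that list is too short to show a difference.

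The highest counts of any member in both lists were at ID3, an inhibitor of E proteins, which lay alone in 95 kb with 319 and 666 read pairs (O/E 11.3 and 15.4). A second ID3 member, of 90 kb, had the higher ratios with 192 and 598 read pairs (14.5 and 15.6). Other loci with many read pairs were also short, at 110 to 140 kb, apart from the CEBPB locus. PIK3R3, a regulatory subunit of PI3K, lay in 140 kb with 172 and 576 (13.1 and 18.3). ATP5MC2, a subunit of ATP synthase, lay in 135 kb with 246 and 468 (15.1 and 16.9), and COTL1, an actin-binding protein, in 110 kb with 198 and 500 (10.6 and 13.3). The ID3, PIK3R3 and ATP5MC2 loops had convergent motifs. The longest members spanned 1000 kb around KIF18A and METTL15 (17 and 31 read pairs), 955 kb between DLGAP1 and AKAIN1 (16 and 25) and 910 kb between CCNH and MEF2C (15 and 34), and none of the 3 had a motif at both anchors. The shortest, around RTP3, spanned 65 kb (79 and 123 read pairs).

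The locus with the most members held 6, on chromosome 22, where CACNA1I, ENTHD1, GRAP2 and TMA7B lay in 485 kb with convergent motifs (17.6 and 21.2). The anchor in most members was one on chromosome 19 starting at 15555001, which 7 members shared. It was chosen after its values were seen. From it, 5 members ran to adjacent bins near NOTCH3, 375 to 395 kb away, with 8 coding genes enclosed, and 2 to bins near AKAP8L, 135 and 140 kb away. The strongest of the 7 had 99 and 114 read pairs (16.9 and 20.5). Likewise, 1 member stood out for its gene content: a loop of 860 kb on chromosome 17 enclosed 56 genes, all of them keratin or keratin-associated protein genes, with 38 read pairs (10.1) and 78 (25.8).

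Members were longer than the other shared bin pairs. Their median span was 340 kb (95% interval from ranks 320 to 360; quartiles 230 and 459), against 135 kb, and was longer on 20 of the 20 chromosomes with at least 5 members. Members under 100 kb numbered 6 and those of 500 kb or more 92. The expected count moved with this, with a median of 3.06 against 5.26 in the SMC1 list and 4.95 against 7.39 in the CTCF list. Since the rule divides by the expected count, span is not independent of it, and the comparisons that follow, apart from the place of CTCF summits and the gene density, are also given with the other shared bin pairs weighted to the spans of the members.

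**Figure D3:**
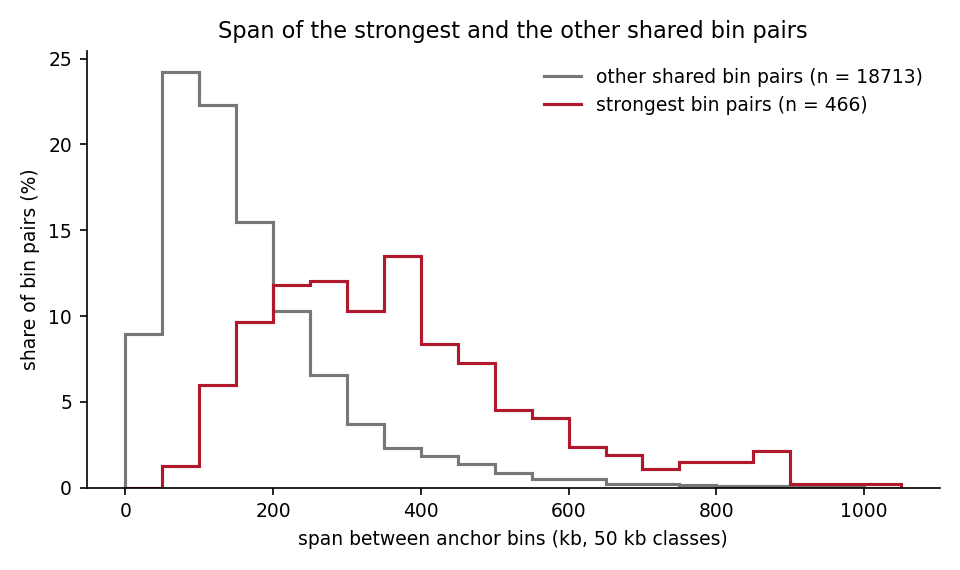
Share of bin pairs (y axis, %) in span classes of 50 kb (x axis) for the members (red) and the other shared bin pairs (grey). The members centre on a median of 340 kb and the others on 135 kb.

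Peaks of both targets were more often present at both anchors of members. A CTCF peak lay at both anchors of 349 members (74.9%, Wilson interval 70.8 to 78.6), against 63.5% of the others, and an SMC1 peak at both anchors of 372 (79.8%, 76.0 to 83.2), against 74.6%. Every member had a peak of each target at 1 anchor at least: 117 had a CTCF peak at 1 anchor alone and 94 an SMC1 peak at 1 anchor alone. When an anchor was widened by 5 kb on each side, all but 2 members had a CTCF peak at both anchors (99.6% against 91.1%). Those 2, named for their count, ran 255 kb from near PHLDB2 on chromosome 3 and 395 kb from near SRGAP1 on chromosome 12, and each had a motif of at least 16.2 bits at its left anchor. Weighted to the same spans, the difference for CTCF was 4.64 percentage points and that for SMC1 0.440. The peaks come from the same libraries as the loops and are no independent readout. Neighbouring members share anchors, so the intervals, which treat bin pairs as independent, are too narrow.

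For CTCF, the weaker anchor set members apart more than the stronger one did, while for SMC1 both did. Taking the −log10 q-value of the strongest peak in each bin, the median at the weaker anchor was 58.2 for CTCF (52.1 to 70.7), against 17.9, and 73.9 for SMC1 (66.8 to 84.9), against 34.2, both higher on 20 of 20 chromosomes. At the stronger anchor it was 210.1 against 207.5 for CTCF, with the members higher on 11 of 20, and 203 against 171.5 for SMC1. Weighted to the same spans, the others had 211.4 for CTCF, above the members, and 171.4 for SMC1. The fold enrichment at the weaker anchor was 6.94 against 4.25 for CTCF and 4.84 against 3.67 for SMC1, and weighted to the same spans the others had 6.19 and 4.31. Among bin pairs of 400 to 600 kb the CTCF medians at the weaker anchor were 63.0 and 63.9, and at 600 kb or more the members had the lower one, 56.1 against 79.4. The SMC1 medians of members were higher in every span class, from 93.8 against 29.1 under 200 kb to 74.1 against 62.7 at 600 kb or more. Weighted to the same spans, the differences at the weaker anchor were 7.45 for CTCF and 25.6 for SMC1. At the stronger anchor they were -1.33 and 31.55, so for SMC1 the stronger anchor then differed more.

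**Figure D4:**
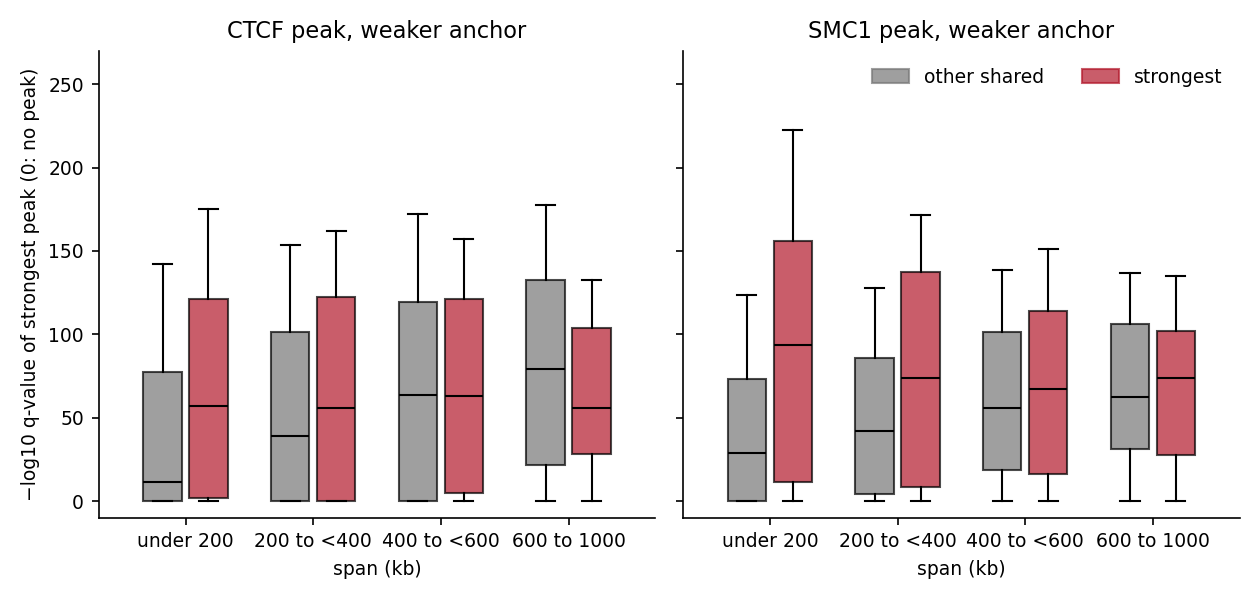
−log10 q-value of the strongest CTCF peak (left) and SMC1 peak (right) at the weaker anchor (y axis, 0 where there was no peak) by span class (x axis, kb), for members (red) and other shared bin pairs (grey). Boxes show quartiles and median, whiskers the 10th and 90th percentiles; the CTCF medians of members are higher below 400 kb, nearly equal to the others at 400 to 600 kb (63.0 and 63.9) and lower at 600 kb or more (56.1 and 79.4).

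Convergent CTCF motifs were more frequent in members. A motif of at least 7 bits near a CTCF summit was present at both anchors of 204 members, and 146 of them were convergent (71.6%, 65.0 to 77.3), 56 had the same orientation and 2 were divergent. Of 7123 other shared bin pairs with a motif at both anchors, 51.8% were convergent and 7.09% divergent, or 57.1% and 5.82% when weighted to the same spans. By locus, 124 of the 167 loci with a motif at both anchors of the strongest bin pair were convergent. At a minimum of 13 bits, 66 of 74 members were convergent (89.2%, 80.1 to 94.4), against 69.3%, and none was divergent, against 32 of 1644. The 2 divergent members at 7 bits ran 530 kb from near SOCS2 on chromosome 12 and 395 kb from near NOTCH3 on chromosome 19, with motifs between 8.27 and 10.6 bits. Hits of 7 bits also occurred in 31.4% of windows 2000 bp from CTCF summits, against 55.7% of summit windows on chromosomes not used for learning, while hits of 13 bits occurred in 1.4% and 15.9%. Over all members, 31.3% were convergent against 19.7%, a difference of 11.6 percentage points that was 7.75 when weighted to the same spans.

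**Figure D5:**
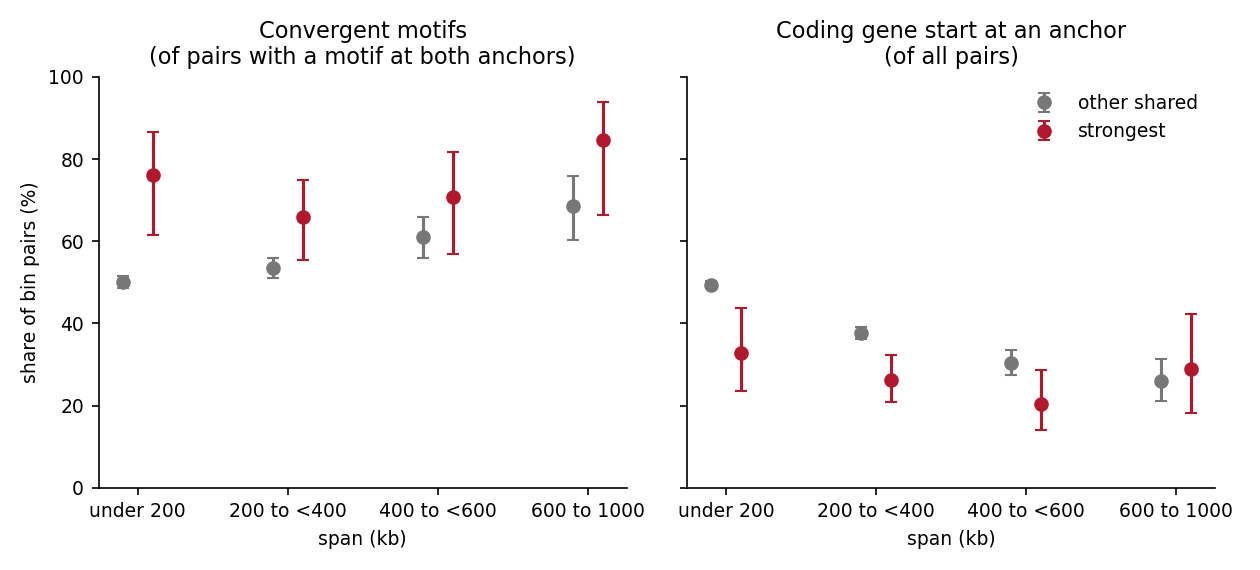
Share of bin pairs (y axis, %) with convergent motifs, of those with a motif at both anchors (left), and with a coding transcription start at an anchor, of all (right), by span class (x axis, kb) for members (red) and other shared bin pairs (grey), with Wilson 95% intervals. The convergent share of members lies above that of the others in each class, 76.2% against 50.1% under 200 kb and 84.6% against 68.7% at 600 kb or more, with overlapping intervals in the 3 classes from 200 kb.

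Member anchors lay away from gene starts more often. A start of a protein-coding transcript lay within 1 kb of an anchor in 122 members (26.2%, 22.4 to 30.4), against 45.5% of the others, and the share was lower on 19 of 20 chromosomes. Both anchors had one in 11 members (2.36%), against 8.50%, or 5.13% when weighted to the same spans. The share was lower in members under 200 kb (32.9% against 49.4%) and at 200 to 400 kb (26.1% against 37.6%), 20.4% against 30.3% with overlapping intervals at 400 to 600 kb, and at 600 kb or more it was 28.8% against 26.0% with overlapping intervals. Weighted to the same spans it was 9.22 percentage points lower. Of 647 member anchors with a CTCF peak, the summit of the strongest was intergenic at 56.4% (52.6 to 60.2), in an intron at 37.9% and in a UTR exon at 4.17%, against 43.6%, 44.7% and 6.999% at the anchors of the other shared bin pairs.

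At equal span members enclosed a coding gene about as often as the others. A whole protein-coding gene lay within 361 members (77.5%) against 64.4% of the others, and weighted to the same spans the shares were 77.5% and 77.2%. The median was 1 gene in both groups, 196 members enclosed exactly 1, and 105 enclosed none. The members covered 107.6 Mb of sequence (3.74% of chromosomes 1 to 22) and held the midpoints of 656 coding genes, 6.10 per Mb. The density was 6.65 per Mb over these chromosomes and 11.5 per Mb over the 712.4 Mb covered by the other shared bin pairs, which partly overlap those of members. Inside a single coding gene lay 14 members (3.004%), against 6.53%, a direction that turned when weighted to the same spans (3.004% against 2.60%). The 14 lay in 11 genes, 3 of them in RALGPS1 and 2 in RGL1, both exchange factors for Ral GTPases.

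At equal span, members contained other shared loops about as often as the rest and lay within longer ones more often. Another shared bin pair lay within 349 members (74.9%) against 60.6% of the others, but weighted to the same spans the share of the others was 75.1%. The median number enclosed was 3 against 1, and 3 against 3 with that weighting. A longer shared bin pair surrounded 284 members (60.9%) against 66.5% of the others, a direction that turned to 60.9% against 50.4% at the same spans. The busier anchor of a member had a median of 8 partners in the SMC1 list and 14 in the CTCF list, against 7 and 11, or 6 and 12 at the same spans. By chromosome, the share of shared bin pairs that were members ran from 0.960% on chromosome 15 (7 of 729), 1.10% on chromosome 8 (7 of 637) and 1.17% on chromosome 19 (19 of 1619) to 3.98% on chromosome 2 (41 of 1030) and 3.99% on chromosome 18 (11 of 276).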

How the data were processed

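HiChIP libraries of HG00731 were analysed from the deposited loop and peak lists (hg38), in which the authors had pooled 2 replicates per target. Per the authors' methods, reads were mapped with BWA-MEM, peaks called with MACS3 (3.0.1) on each library's own background without input, and loops called with MAPS at 5 kb. The deposited loop lists hold the raw count of read pairs, the expected count of the MAPS regression, a false discovery rate (a q-value) and a −log10 P of the cluster, of which the count and expected count were used. The deposited peak lists hold a fold enrichment ratio and a −log10 q-value, both used. Read pairs were not counted by molecular identifiers, and replicate spread is unknown. Read depth of whole libraries was not used here; counts of 13 or more read pairs lie behind each member value.

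O/E was the count over the expected count. Peaks were placed on bins by an overlap of at least 1 bp. Genes came from GENCODE 44, of the same build. The CTCF motif (19 bp) was learned by expectation maximisation from 50 bp either side of 3000 CTCF summits on odd-numbered autosomes and sought within 100 bp of summits with a minimum of 7 bits. It was tested on simulated data. Shares carry Wilson intervals, medians intervals from ranks, and single O/E values exact Poisson intervals at 95%. With 1 pooled list per target no test was made.

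Members and gene lists were chosen with earlier results of these data known. The loci named were the 20 of highest geometric mean O/E, the 5 with most read pairs at the strongest bin pair, the 3 longest, the 3 shortest, the 3 with most members and those enclosing a gene of the B cell lists. Their genes are those wholly enclosed or nearest the anchors; a few loci and genes that the rule names are not reported here. Alternatives covered the threshold, bin matching, read pair minimum, locus collapsing, span weighting, peak and anchor definitions and the gene annotation. Scripts ran pysam 0.24.0, Matplotlib 3.10.9, pandas 2.3.3, SciPy 1.17.1 and NumPy 2.4.6 under Python 3.11.15.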

Additional observations from a re-analysis of the deposited data

How the results depend on the processing

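No paired analysis was possible because the replicates were pooled before deposit; for the same reason no replicate could be left out. Of 107 alternatives, 66 left a difference within the 95% interval of its reported value (a count within 1.5 times), 37 moved it further and 4 reversed it. Of the 107, 75 were planned and 32 chosen after seeing the data: comparison pairs not within 10 kb of a member, comparison pairs with a geometric mean O/E under 4, and span weighting of 12 further comparisons. The number of members (466) became 1195 at a threshold of 8 and 55 at 15. With a threshold of 15, the differences (members minus others) were 255 kb in median span, 8.94 percentage points for an SMC1 peak at both anchors, 51.9 and 49.6 in CTCF and SMC1 −log10 q-value at the weaker anchor, 25.5 points in convergent motifs and 18.97 points in gene enclosure. With 1 bin pair per locus, they were 182.5 kb in span, 7.09 points for a CTCF peak at both anchors and 8.14 points for both targets at both. With at least 30 read pairs in both lists, they were 5.79 points for CTCF, 0.644 for SMC1, 6.35 for both targets, 15.8 in CTCF strength and -24.9 points for a coding start at an anchor. Weighted to the same spans, they were 4.64 points for CTCF, 0.440 for SMC1, 5.23 for both targets, 7.45 and 25.6 in CTCF and SMC1 strength, 0.320 for gene enclosure and -9.22 for a coding start, and the share inside 1 coding gene reversed to 0.407 points, as did CTCF strength at the stronger anchor (-1.33), the share enclosing another shared pair (-0.219) and the share inside a longer one (10.6); 1 member had no comparison pair in its span class. Peaks of at least 10 in −log10 q-value gave 15.6 points for CTCF at both anchors, anchors widened by 5 kb gave 25.8 in CTCF strength, and summits inside the bin gave 26.8 in SMC1 strength. Counting all annotated genes gave 6.04 points for enclosure and -12.7 for a start at an anchor. Against pairs under 4, the differences were 260 kb in span, 18.9 points in enclosure, -29.3 for a coding start and -6.17 for the share inside 1 coding gene. Apart from span weighting, the cause of these moves was not tested.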
